A study of Mus musculus with 2 samples.

Results

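Type 2 dendritic cells marked by Cd209a and Clec10a were described in 2 droplet libraries made from leukocytes of mouse gum (gingiva). A barcode was taken into this group, and is called a member, if it showed 200 or more genes, no more than 15% of UMIs from mitochondrial genes, 2 or more UMIs of Cd209a and Clec10a together, and few UMIs of other phagocytes. Those limits were at most 2 UMIs of C1qa, C1qb and C1qc, at most 1 of Xcr1 and Clec9a, and at most 3 of Siglech, Ccr9, Klk1 and Cox6a2. A UMI is a molecular tag that counts 1 captured transcript. The rule found 231 members among the 8109 barcodes of the library labelled Otud1-/- and 359 among the 13267 barcodes of the wild-type (WT) library. These were 3.33% (2.92 to 3.78) of 6936 kept barcodes in the library labelled Otud1-/- and 2.81% (2.53 to 3.11) of 12769 in the WT library, with exact Clopper-Pearson 95% intervals. Because the members were chosen by these transcripts, the levels of the 9 genes of the rule are a description of the choice and support nothing.

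Both libraries came from C57BL/6 mice in a study of experimental periodontitis, 1 labelled Otud1-/- and 1 labelled WT. The study's title concerns OTUD1, a deubiquitinase, and protein transport in neutrophils. The number of animals per library, their age, the Otud1 allele and the gum treatment of each group are not stated in the sources used. With 1 library per genotype no difference has a replicate check, no test was run, and all 95% intervals cover counting error only.

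Dendritic cells take up antigen, load peptides onto MHC class II and present them to CD4+ T cells. Type 2 conventional dendritic cells depend on the transcription factor IRF4, carry the C-type lectins CD209a (a mouse relative of DC-SIGN) and CLEC10A (a galactose-binding macrophage lectin), and are known for priming helper T cell responses at barriers such as the oral mucosa. Monocytes that enter an inflamed tissue can take on part of the same programme, including Cd209a.

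Cd209a (chromosome 8, 3743397 to 3748984, minus strand, mm10) and Clec10a (chromosome 11, 70156197 to 70170834, plus strand) marked the members unequally in the libraries. Per cell, Cd209a and Clec10a together had a median of 8 UMIs (2 to 66) in members labelled Otud1-/- and of 3 UMIs (2 to 40) in WT members. Members at exactly 2 UMIs, just inside the rule, were 31 (13.4%) in the library labelled Otud1-/- and 128 (35.7%) in the WT library. Just outside it, 126 barcodes of the library labelled Otud1-/- and 350 WT barcodes that met the other limits had 1 UMI. Both genes were detected in 137 members labelled Otud1-/- (59.3%) and 150 WT members (41.8%), Cd209a alone in 65 members labelled Otud1-/- and 169 WT members, and Clec10a alone in 29 members labelled Otud1-/- and 40 WT members. The C1q limit removed 64 of 348 barcodes with enough gate UMIs from the library labelled Otud1-/- and 132 of 557 from the WT library. At that edge, 5 removed barcodes labelled Otud1-/- and 8 WT had 3 C1q UMIs, and 8 members labelled Otud1-/- and 16 WT had 2. Members labelled Otud1-/- also held more UMIs per cell, with a median of 10593 (1258 to 78583) against 3840 (786 to 35454) in WT members. Their median number of genes was 2551 against 1431. Kept barcodes outside the members had medians of 4232 UMIs (labelled Otud1-/-) and 2267 UMIs (WT). The cause of these differences was not tested. With every barcode thinned to 1000 UMIs before the rule was applied, which left out 295 barcodes of the library labelled Otud1-/- and 1283 WT barcodes, the shares were 1.16% (0.916 to 1.45) in the library labelled Otud1-/- and 1.05% (0.875 to 1.26) in the WT library. At matched depth these intervals overlapped widely.

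**Figure D1:**
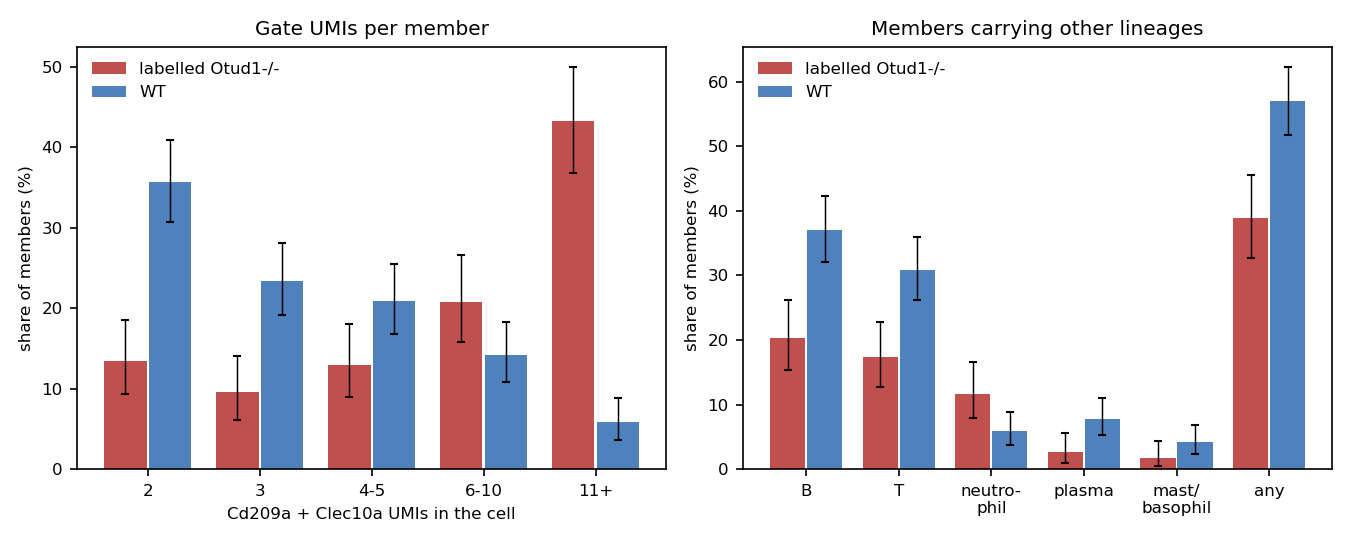
Left, share of members (%) by the number of Cd209a plus Clec10a UMIs in the cell, in the library labelled Otud1-/- (red) and the WT library (blue). Right, share of members (%) that carried genes of other lineages by the screen given in the text. Error bars are exact Clopper-Pearson 95% intervals, which cover counting error only. Members with 11 or more gate UMIs were 43.3% in the library labelled Otud1-/- and 5.85% in the WT library, and carriage of any other lineage was 39.0% in the library labelled Otud1-/- and 57.1% in the WT library.

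Many members also carried transcripts of other cell types, and WT members did so more often. B cell genes (at least 2 UMIs of Cd79a, Cd79b and Ms4a1) were found in 47 members labelled Otud1-/- (20.3%) and 133 WT members (37.0%). T cell genes (at least 2 UMIs of Cd3d, Cd3e and Cd3g) were found in 40 members labelled Otud1-/- (17.3%) and 111 WT members (30.9%). Neutrophil genes (at least 2 UMIs of Csf3r, Cxcr2 and Retnlg) ran the other way, in 27 members labelled Otud1-/- (11.7%) and 21 WT members (5.85%). Mast cell or basophil genes (at least 2 UMIs of Cpa3, Mcpt4, Cma1, Tpsb2 and Mcpt8) were found in 4 members labelled Otud1-/- and 15 WT members, and plasma cell genes (at least 5 UMIs of Jchain and Mzb1) in 6 members labelled Otud1-/- and 28 WT members. Cells that carried T cell genes held more UMIs, a median of 16464 in the library labelled Otud1-/- and 5549 in the WT library, against 9558 (labelled Otud1-/-) and 2803 (WT) in members with none of these lineages. CPM is the UMI count scaled so that all genes of a set of cells add up to the same total. The carriers of T cell genes still had Cst3 at 2057 CPM (labelled Otud1-/-) and 1927 CPM (WT), against 4258 CPM (labelled Otud1-/-) and 3716 CPM (WT) in members with none. A Scrublet-type doublet score marked 28 members labelled Otud1-/- (12.1%) and 64 WT members (17.8%). How many barcodes it marked was preset, at 6.49% of kept barcodes labelled Otud1-/- and 10.6% of WT kept barcodes. The shares of members are thus no measure of how many were doublets, and their order between the libraries is not read. The 141 members labelled Otud1-/- and 154 WT members with none of the 5 lineages are called screened members, a set chosen after seeing the data, and the main results are given for both sets. They were 2.03% (1.71 to 2.39) of kept barcodes in the library labelled Otud1-/- and 1.21% (1.02 to 1.41) in the WT library.

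Sex-linked genes differed too. Xist, which silences 1 X chromosome in female cells, had 0 UMIs in the 231 members labelled Otud1-/- (which allows a share of cells with a UMI of up to 1.58%, exact 95% limit) and was found in 92 WT members with no Y-linked UMI and in 71 with one. Y-linked UMIs without Xist were found in 176 members labelled Otud1-/- and 80 WT members, and values for those cells alone, called Y-positive members without Xist, are given where they differ. Otud1 itself had 71 UMIs in members labelled Otud1-/- (23.5 CPM, 18.4 to 29.7) and 19 in WT members (9.26 CPM, 5.58 to 14.5). It was thus higher in the library labelled Otud1-/-, against the label. A 3′ tag outside the deleted part would not check the label. Of the 37 barcodes that the libraries shared, 0 were members.

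The markers gave a mixed picture of the label. Cst3, Tnip3 and the MHC class II genes H2-Aa, H2-Ab1 and H2-Eb1 were found in most members (unthinned). Other genes of the type 2 list were scarce or higher elsewhere. Cd209a and Clec10a were set by the rule and are not counted here. Cst3, which encodes cystatin C and was the 1 given marker that the rule did not use, had 3231 CPM in members labelled Otud1-/- and 2643 CPM in WT members. The B cell gate, a class that should lack it, had 290.0 CPM (labelled Otud1-/-) and 366 CPM (WT). With cells thinned to 1000 UMIs, Cst3 was found in 87.0% of members labelled Otud1-/- and 81.1% of WT members, against 16.3% (labelled Otud1-/-) and 23.8% (WT) in the B cell gate. Unthinned, Cst3 was in 97.8% of members labelled Otud1-/- and 96.4% of WT members. Cst3 does not separate types of dendritic cell, since the type 1 gate had 15299 CPM (labelled Otud1-/-) and 14188 CPM (WT) and the mature gate 8096 CPM (labelled Otud1-/-) and 4858 CPM (WT). Tnip3, an inhibitor of NF-kB signalling, had 643 CPM in members labelled Otud1-/- and 426 CPM in WT members. Thinned shares of cells with Tnip3 were 41.1% (labelled Otud1-/-) and 27.1% (WT), against 0.166% (labelled Otud1-/-) and 0.728% (WT) in the B cell gate. Mgl2, the lectin next to Clec10a on chromosome 11 (70130329 to 70137550), had 250.3 CPM in members labelled Otud1-/- and 279.8 CPM in WT members and was found in a minority of members in each library, 16.5% (labelled Otud1-/-) and 18.3% (WT) after thinning. Flt3, the dendritic growth factor receptor, had 62.3 CPM in members labelled Otud1-/- and 60.9 CPM in WT members, and Zbtb46, a transcription factor of conventional dendritic cells, 20.5 CPM in members labelled Otud1-/- and 18.5 CPM in WT members. The thinned shares for Zbtb46 were 3.03% (labelled Otud1-/-) and 1.14% (WT), against 0.0994% (labelled Otud1-/-) and 0.451% (WT) of B cells. NK cells, a lineage that is not dendritic, had Zbtb46 at 29.4 CPM (labelled Otud1-/-) and 26.3 CPM (WT), above the members, so its level does not set members apart. Clec4a4, of the type 2 list, had 3 UMIs (labelled Otud1-/-) and 0 (WT), and Cd1d1, which presents lipids, had 4.97 CPM (labelled Otud1-/-) and 3.41 CPM (WT). Itgam, the CD11b integrin chain, and Il1r2 of the same list had higher levels in neutrophils than in members in both libraries. Irf4 had 52.4 CPM (labelled Otud1-/-) and 46.6 CPM (WT) in B cells, above members in the library labelled Otud1-/- and below them in the WT library.

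Genes that define type 1 and mature dendritic cells were lower in members than in those gates, but several monocyte and macrophage genes were found in many members. The comparison gates were themselves drawn by fixed UMI counts of marker genes. A high level of such a gene in its own gate follows from that choice. Xcr1, a chemokine receptor of type 1 dendritic cells, had 0 UMIs in members labelled Otud1-/- and 3 in WT members, and Clec9a, a dead-cell receptor of the same type, had 10 (labelled Otud1-/-) and 8 (WT), both held down by the rule. Irf8 and Naaa, which the rule did not use, were lower in members than in the type 1 gate (26 cells labelled Otud1-/- and 39 WT). Irf8, the lineage factor of type 1 cells, had 82.4 CPM (labelled Otud1-/-) and 106 CPM (WT) in members, against 496 CPM (labelled Otud1-/-) and 717 CPM (WT) in the gate. Naaa, a lysosomal hydrolase, had 152 CPM (labelled Otud1-/-) and 106 CPM (WT) in members, against 489.7 CPM (labelled Otud1-/-) and 694 CPM (WT) in the gate. Fscn1, an actin-bundling gene of mature migratory dendritic cells, had 2.32 CPM (labelled Otud1-/-) and 24.4 CPM (WT), against 562 CPM (labelled Otud1-/-) and 571 CPM (WT) in the mature gate (80 cells labelled Otud1-/- and 142 WT). Cacnb3 of the same list had 0 UMIs (labelled Otud1-/-) and 7 (WT). Ccr7, the lymph node homing receptor, had 257 CPM (labelled Otud1-/-) and 323 CPM (WT). The B cell gate had 412 CPM (labelled Otud1-/-) and 335 CPM (WT), so over all members the gene was under the level of an admixed lineage, though above the type 1 gate (147 CPM labelled Otud1-/- and 163 CPM WT). Ly6c2, a monocyte gene, had 277 CPM (labelled Otud1-/-) and 385 CPM (WT) against 1959 CPM (labelled Otud1-/-) and 2395 CPM (WT) in the monocyte gate (255 cells labelled Otud1-/- and 369 WT). Plac8, of the monocyte list, had 989 CPM (labelled Otud1-/-) and 938 CPM (WT) in members, and was in 77.1% of members labelled Otud1-/- and 73.5% of WT members. The monocyte gate had Plac8 at 4408 CPM (labelled Otud1-/-) and 3309.8 CPM (WT). Ccr2, the monocyte homing receptor, had 297 CPM (labelled Otud1-/-) and 254 CPM (WT) in members, against 578 CPM (labelled Otud1-/-) and 553 CPM (WT) in the gate, and Ms4a4c had 284 CPM (labelled Otud1-/-) and 247 CPM (WT), against 565 CPM (labelled Otud1-/-) and 495 CPM (WT). Of the macrophage list, Apoe, a lipid carrier, had 292 CPM (labelled Otud1-/-) and 468 CPM (WT) in members, against 4692 CPM (labelled Otud1-/-) and 5495 CPM (WT) in the C1q+ macrophage gate. Cd68, a lysosomal protein, had 209 CPM (labelled Otud1-/-) and 139.9 CPM (WT), against 363 CPM (labelled Otud1-/-) and 319 CPM (WT). Cd207, which marks Langerhans cells, was found in 1.30% of members labelled Otud1-/- and 0.557% of WT members. Mertk, a receptor of resident macrophages, had 0 UMIs in both.

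**Figure D2:**
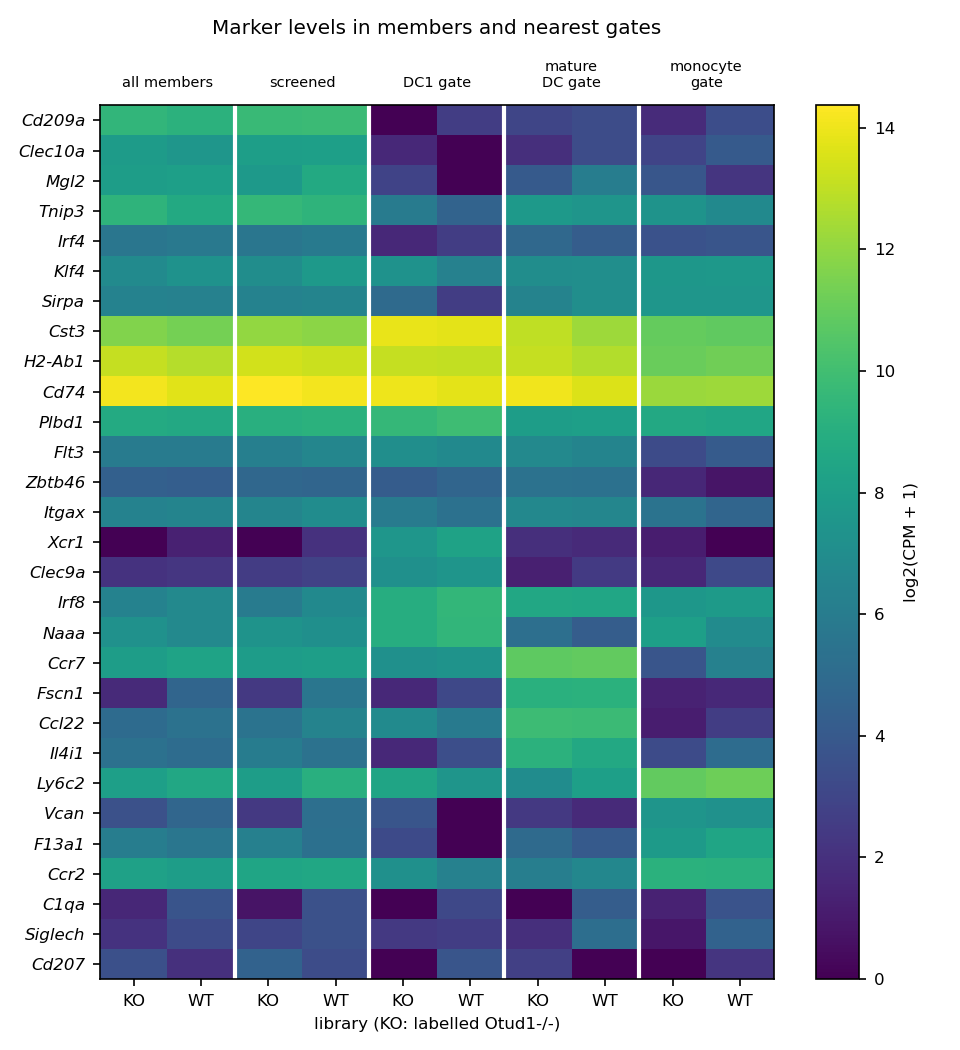
Level of marker genes as log2(CPM + 1) in all members, screened members and the gates for type 1 dendritic cells, mature dendritic cells and monocytes, with the library labelled Otud1-/- (KO) left of the WT library in each pair. Cd209a, Clec10a, Xcr1, Clec9a, C1qa and Siglech were used by the rule. The gates were drawn by UMI counts of marker genes, so high levels of those genes in their own gate follow from that choice. Of the sets drawn, Tnip3 and Mgl2 were highest in members, Irf8 and Naaa in the type 1 gate, Fscn1 in the mature gate (562 CPM (labelled Otud1-/-) and 571 CPM (WT)) and Ly6c2 in the monocyte gate (1959 CPM (labelled Otud1-/-) and 2395 CPM (WT)).

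Screened members were set against the pooled type 1, mature and monocyte gates, leaving out C1q+ macrophages. Ranked by the smaller of the 2 libraries' log2 ratios (with a prior of 5 CPM), the 10 leading genes were Mgl2, Clec4b1, Mrc1, Tnip3, Cd209d, Slamf9, Klrd1, Wnt11, Cd7 and Irf4. Mgl2 had 220.1 CPM against 10.7 CPM in the library labelled Otud1-/-, and 418 CPM against 16.0 CPM in the WT library, screened members against the pooled gates, a smaller log2 ratio of 3.84. Clec4b1, a lectin of the dendritic cell immunoreceptor cluster, had 151 CPM against 15.8 CPM in the library labelled Otud1-/-, and 135 CPM against 14.2 CPM in the WT library (smaller ratio 2.87), and Mrc1, the mannose receptor CD206, had 104 CPM against 17.7 CPM in the library labelled Otud1-/-, and 107 CPM against 6.86 CPM in the WT library (2.26). Cd209d, a neighbour of Cd209a on chromosome 8 (3871824 to 3878555), had 96.2 CPM against 2.81 CPM in the library labelled Otud1-/-, and 101 CPM against 18.3 CPM in the WT library (2.18). Annotated coding transcripts of Cd209a and Cd209d shared no run of 60 bases within their last 600 bases, and neither did Clec10a and Mgl2, so 3′ reads could be told apart over that stretch. Klrd1, which encodes the NK receptor CD94, had 344 CPM against 72.6 CPM in the library labelled Otud1-/-, and 277 CPM against 72.7 CPM in the WT library (1.86), and Cd7, a surface glycoprotein better known from T cells, had a smaller ratio of 1.60. Irf4, the lineage factor of type 2 dendritic cells, closed the 10 with 48.5 CPM against 13.8 CPM in the library labelled Otud1-/-, and 60.4 CPM against 12.3 CPM in the WT library (1.51). Against the C1q+ macrophage gate the picture differed. That gate had Mrc1 at 164 CPM (labelled Otud1-/-) and 168 CPM (WT), above screened members, and Irf4 at 39.6 CPM (labelled Otud1-/-) and 26.1 CPM (WT). It was the highest gated class for Mgl2, at 126 CPM (labelled Otud1-/-) and 152 CPM (WT), and for Tnip3, at 377 CPM (labelled Otud1-/-) and 252 CPM (WT), both below screened members. Cd209d had 0 CPM (labelled Otud1-/-) and 9.4 CPM (WT) there. These ratios describe how the chosen cells differ and were not tested. Ranked over all members, 6 of the 10 leading genes were mast cell or T cell genes (Mcpt4, Cpa3, Tpsb2, Cma1, Cd3g and Cd3d).

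The members were not uniform. Those with Clec10a and no Cd209a UMI (29 labelled Otud1-/- and 40 WT) were led by mast cell genes in their summed UMIs. These genes came from few cells: Mcpt4 was found in 1.73% of all members labelled Otud1-/- and 4.46% of all WT members. Mcpt4, a mast cell protease, had 2569 CPM against 0 CPM in members labelled Otud1-/-, and 4130.5 CPM against 27.2 CPM in WT members, each time in these cells against the other members. Cpa3, mast cell carboxypeptidase, had 1176 CPM against 0.372 CPM in members labelled Otud1-/-, and 1734 CPM against 10.9 CPM in WT members. The 4 members labelled Otud1-/- and 15 WT members that carried mast cell or basophil genes had Clec10a at 757 CPM (labelled Otud1-/-) and 746 CPM (WT) and Cd209a at 0 CPM (labelled Otud1-/-) and 277 CPM (WT). Their Cd74, the MHC class II invariant chain, was 344 CPM (labelled Otud1-/-) and 6654 CPM (WT), against 21179 CPM (labelled Otud1-/-) and 17982 CPM (WT) in screened members. By these values the Clec10a part of the rule also admitted mast cell barcodes, which go against the label of dendritic cells and are not in the screened set.

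Among screened members, Mgl2 was detected in 45 of 141 cells labelled Otud1-/- and 54 of 154 WT cells. Beyond Mgl2 itself, the genes with the highest ratio in both libraries were Mmp12, Ear2, Cxcl3, Cd81, Hist1h2ae, Fcrls, Pltp, Flrt3 and Retnla, ranked by the smaller of the 2 ratios. Some of these ratios rested on few UMIs in the cells with Mgl2. Retnla had 7 UMIs there in the library labelled Otud1-/-. In the WT library Fcrls had 10, Mmp12 11, Cxcl3 14 and Cd81 17. Mmp12, macrophage elastase, had 156 CPM against 2.16 CPM in members labelled Otud1-/-, and 37.8 CPM against 0 CPM in WT members, in cells with Mgl2 against cells without. Cd81, a tetraspanin, had 119.7 CPM against 3.24 CPM in members labelled Otud1-/-, and 58.4 CPM against 5.64 CPM in WT members. Pltp, the phospholipid transfer protein, had 179.6 CPM against 16.2 CPM in members labelled Otud1-/-, and 113 CPM against 25.4 CPM in WT members. The neutrophil-attracting chemokine Cxcl2, further down this ranking, had 1854 CPM against 309 CPM in members labelled Otud1-/-, and 1219.5 CPM against 330.1 CPM in WT members. Mrc1 was 222 CPM (labelled Otud1-/-) and 165 CPM (WT) with Mgl2 and 37.8 CPM (labelled Otud1-/-) and 59.2 CPM (WT) without. Ly6c2 ran the other way, at 79.2 CPM (labelled Otud1-/-) and 168 CPM (WT) with Mgl2 against 354 CPM (labelled Otud1-/-) and 849 CPM (WT) without, as did Cd7, at 50.2 CPM (labelled Otud1-/-) and 51.5 CPM (WT) against 284 CPM (labelled Otud1-/-) and 183 CPM (WT). Cells with Mgl2 were deeper, with medians of 10917 UMIs (labelled Otud1-/-) and 3796 UMIs (WT) against 9310.5 UMIs (labelled Otud1-/-) and 2598 UMIs (WT), and detection rises with depth.

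A monocyte programme was seen in 31 of 141 screened members labelled Otud1-/- and 23 of 154 WT, those with at least 4 UMIs of Ly6c2, Vcan and F13a1. Lyz2, lysozyme M, had 12886 CPM against 2538 CPM in members labelled Otud1-/-, and 5468 CPM against 1613 CPM in WT members, in these cells against the rest. Fn1, fibronectin, had 517 CPM against 155 CPM in members labelled Otud1-/-, and 198 CPM against 40.9 CPM in WT members. Cxcl10, a chemokine for CXCR3+ T cells, had 527 CPM against 137 CPM in members labelled Otud1-/-, and 502 CPM against 125 CPM in WT members, and Thbs1, thrombospondin 1, had 123 CPM against 2.62 CPM in members labelled Otud1-/-, and 243 CPM against 46.7 CPM in WT members. Their H2-Ab1, an MHC class II beta chain, was lower, at 5527 CPM (labelled Otud1-/-) and 7164 CPM (WT) against 11971 CPM (labelled Otud1-/-) and 10176 CPM (WT), and so was Flt3, at 53.0 CPM (labelled Otud1-/-) and 60.8 CPM (WT) against 79.6 CPM (labelled Otud1-/-) and 105 CPM (WT).

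A maturation programme was seen in 24 screened members labelled Otud1-/- and 20 WT, those with at least 4 UMIs of Ccr7, Fscn1, Ccl22 and Cacnb3. Beyond these genes, Fabp5, a fatty acid binding protein, had 1248 CPM against 94.4 CPM in members labelled Otud1-/-, and 656 CPM against 83.4 CPM in WT members, in these cells against the rest. Tbc1d4, a Rab GTPase-activating protein, had 846 CPM against 97.9 CPM in members labelled Otud1-/-, and 776 CPM against 79.4 CPM in WT members. Il4i1, an amino acid oxidase of mature dendritic cells, had 159 CPM against 41.1 CPM in members labelled Otud1-/-, and 120.0 CPM against 19.8 CPM in WT members. Lyz2 was lower, at 680.4 CPM (labelled Otud1-/-) and 473 CPM (WT) against 5759 CPM (labelled Otud1-/-) and 2939.6 CPM (WT), and so was Cd209a, at 514 CPM (labelled Otud1-/-) and 572 CPM (WT) against 947 CPM (labelled Otud1-/-) and 971 CPM (WT). Fscn1 differed within this set, at 9.96 CPM in cells labelled Otud1-/- and 198 CPM in WT cells. Of 231 members labelled Otud1-/- 85 (36.8%) and of 359 WT members 111 (30.9%) had a UMI of the cycling genes Mki67, Top2a or Birc5. At 1000 UMIs Mki67 was found in 6.06% (labelled Otud1-/-) and 5.71% (WT) of members, against 1.96% (labelled Otud1-/-) and 10.0% (WT) in the B cell gate. The WT share lay below that of B cells, and no cycling was read from it.

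**Figure D3:**
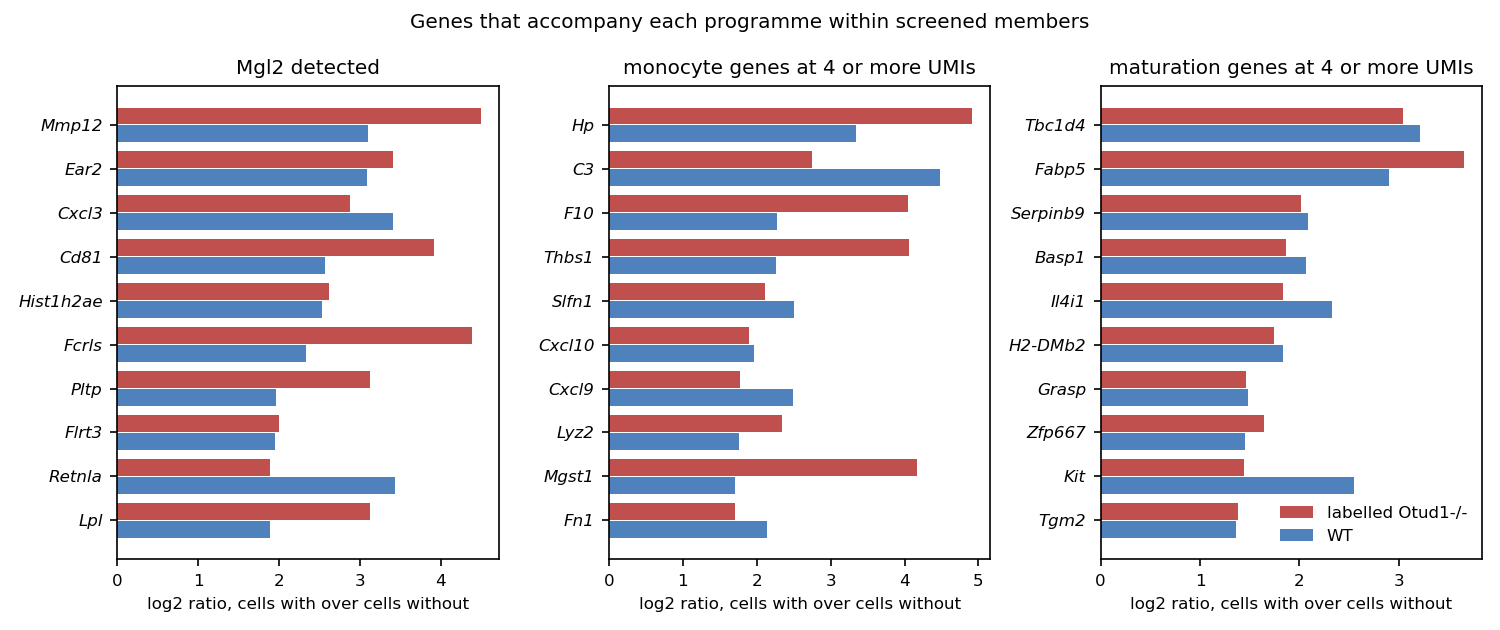
For 3 programmes within screened members, the 10 leading genes not used to define the programme, as the log2 ratio of CPM in cells with the programme over cells without it (prior of 5 CPM), in the library labelled Otud1-/- (red) and the WT library (blue). Genes are ordered by the smaller of the 2 ratios, and all bars point to the right because the genes were chosen for a high ratio in both libraries. Mmp12 led the cells with Mgl2, Hp those with monocyte genes and Tbc1d4 those with maturation genes.

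Between the libraries, the named genes with the highest ratios included the chemokines Cxcl3, Ccl17 and Cxcl10 and the fibronectin gene Fn1, and those with the lowest included Retnla, T cell genes and Hmgb2. Levels were compared as the log2 ratio of CPM in members labelled Otud1-/- over WT members for 2587 genes with a mean of at least 50 CPM. Past 1.5-fold, 151 (5.84%) were higher and 128 (4.95%) were lower, and the median log2 ratio was 0.01. Higher genes were thus 54.1% of the genes past the fold; with TMM factors, which moved the median to 0.15, they were 75.6%, 263 higher and 85 lower. Among 2411 genes in screened members, 80 (3.32%) were higher and 188 (7.80%) lower. Of the 151 higher genes, 123 kept their direction in screened members and 41 stayed past 1.5-fold, and of the 128 lower genes 122 and 107 did. Levels of 16 of the 151 and 13 of the 128 were below 10% of those in another gated cell type and may be background RNA.

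Fn1 (chromosome 1, 71585520 to 71653200) had 717 UMIs in 33.8% of members labelled Otud1-/- and 149 UMIs in 15.3% of WT members. This was 237 CPM in members labelled Otud1-/- and 72.6 CPM in WT members, a log2 ratio of 1.70 (1.45 to 1.97). In screened members its log2 ratio was 1.66 (1.22 to 2.14), and among Y-positive members without Xist 2.31. Fn1 was thus higher in the library labelled Otud1-/- in each of these sets. Of the gates with at least 50 cells, the monocyte gate had the most Fn1 in both libraries. Ccl17, the chemokine that draws CCR4+ T cells, had 108 CPM in members labelled Otud1-/- and 36.1 CPM in WT members, a log2 ratio of 1.57 (1.22 to 1.97). Among the same gates, the mature gate had the most Ccl17 in both libraries. Ccl17 was present in few members. Of members labelled Otud1-/- 10.8% had it, and 1 cell held 41.0% of the UMIs; of WT members 5.29% had it, and 1 cell held 33.8%. Without the highest cell of each library the log2 ratio was 1.40, and with members thinned to 1000 UMIs it was 0.01. Cxcl3, a chemokine for neutrophils, had 91.4 CPM in members labelled Otud1-/- and 17.1 CPM in WT members, a log2 ratio of 2.39 (1.91 to 2.97), from 10.8% of members labelled Otud1-/- and 2.79% of WT members. It was higher still in the neutrophil gate, at 894 CPM (labelled Otud1-/-) and 510.1 CPM (WT), and the part of neutrophil RNA in its ratio was not tested. Its ratio was 1.30 (0.48 to 2.25) in screened members.

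Tppp3, a tubulin-binding protein, had 202 CPM in members labelled Otud1-/- and 70.2 CPM in WT members, a log2 ratio of 1.52 (1.26 to 1.79), and 1.41 in screened members. Tnfsf9, the 4-1BB ligand that costimulates T cells, had 203 CPM in members labelled Otud1-/- and 97.0 CPM in WT members, a log2 ratio of 1.06 (0.83 to 1.30), and 1.07 (0.72 to 1.43) in screened members. Both were found in over 40% of members labelled Otud1-/- (44.2% and 58.4%). Fam110a, a centrosome-associated protein, had 86.8 CPM in members labelled Otud1-/- and 34.1 CPM in WT members, a log2 ratio of 1.33 (0.96 to 1.75), and Nupr1, a stress-induced chromatin protein, 92.1 CPM in members labelled Otud1-/- and 44.4 CPM in WT members, a log2 ratio of 1.05 (0.71 to 1.41). Their screened ratios were larger, 1.90 and 1.29. Among Y-positive members without Xist the ratios of these 4 genes were 1.04, 0.43, 0.71 and 0.57, so Tnfsf9 and Nupr1 were under 1.5-fold there.

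The other 5 genes named as higher were Clec4e, Adam8, Rnf149, Mefv and Cxcl10. Clec4e, the lectin Mincle, had 243 CPM in members labelled Otud1-/- and 93.1 CPM in WT members, a log2 ratio of 1.38 (1.15 to 1.62), and 1.11 (0.56 to 1.73) in screened members. Adam8, Rnf149 and Mefv had log2 ratios of 1.15, 1.22 and 1.08 in all members and 0.55, 0.38 and 0.48 in screened members, and Cxcl10 1.25 and 0.12. Clec4e, Adam8, Rnf149 and Mefv were highest in the neutrophil gate of both libraries, and Cxcl10 in the monocyte gate. All 8 of 8 neutrophil markers were higher in members labelled Otud1-/-, with a summed level of 4649.6 CPM against 1192 CPM in WT members. In screened members the sum was 149.5 CPM against 309.8 CPM. That order is not read, because the screen removed cells by Csf3r, Cxcr2 and Retnlg, which are among these markers, at unlike depth.

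Retnla (chromosome 16, 48842551 to 48844461), which encodes RELM alpha, a secreted protein of alternatively activated macrophages, had the lowest ratio of the 24 named genes in all members. It had 12 UMIs in 2.16% of members labelled Otud1-/- and 212 UMIs in 10.0% of WT members. These were 3.97 CPM in members labelled Otud1-/- and 103 CPM in WT members, a log2 ratio of -4.54 (-5.68 to -3.87). In screened members it had 4.85 CPM (labelled Otud1-/-) and 159.6 CPM (WT), a log2 ratio of -4.90, and among Y-positive members without Xist the ratio was -3.64. The 14 screened WT members with Retnla also had high Mgl2, at 864 CPM against 391 CPM in the other screened WT members, and Mrc1, at 324 CPM against 93.7 CPM. Retnla was more abundant in the gate of C1q+ macrophages, at 256 CPM (labelled Otud1-/-) and 368 CPM (WT), and the part of free RNA in the WT level was not tested.

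T cell genes were lower: Cd3e (-1.85), Cd3g (-1.34), Ctla4 (-2.08), Tnfrsf4 (-1.40), Tnfrsf18 (-1.42), Ptprcap (-1.35), Gimap3 (-1.27) and Gimap4 (-1.30), each as the log2 ratio of members labelled Otud1-/- over WT members. Their highest level was in the T cell, NK cell or plasma cell gates, and 6 of 6 measured T cell markers were lower, with summed levels of 334 CPM in members labelled Otud1-/- and 861 CPM in WT members. With Cd3d, Cd3e and Cd3g capped by the screen, screened members held 21.5 CPM (labelled Otud1-/-) and 147 CPM (WT). Screened ratios of Cd3e and Cd3g are not read, because the screen removed cells by these genes, and it lowers other T cell genes with them: Ctla4 and Tnfrsf4 were left at 2.08 and 0.692 CPM in screened members labelled Otud1-/-, against 26.3 and 40.3 CPM in screened WT members. Gimap4 was at -0.03 among Y-positive members without Xist. The 3 remaining genes were lower in screened members too, and were most abundant in the plasma cell gate (Hmgb2 and Hist1h4d) or the T cell gate (Pdcd4). Hmgb2, a chromatin protein, had 393 CPM in members labelled Otud1-/- and 1066 CPM in WT members, a log2 ratio of -1.44 (-1.54 to -1.34), and -1.48 (-1.68 to -1.28) in screened members. Hist1h4d, a replication-dependent histone gene, had 39.4 CPM in members labelled Otud1-/- and 104 CPM in WT members, a log2 ratio of -1.39 (-1.73 to -1.07), and Pdcd4, an inhibitor of translation initiation, 62.6 CPM in members labelled Otud1-/- and 153 CPM in WT members, a log2 ratio of -1.28 (-1.56 to -1.03). Their screened ratios were -1.63 and -1.10.

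**Figure D4:**
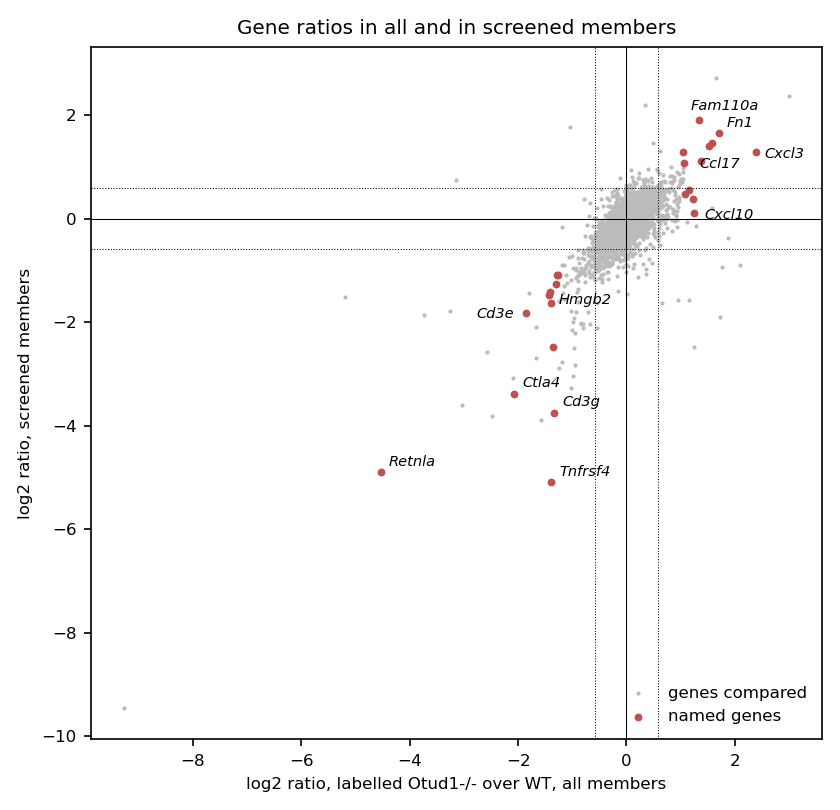
Log2 ratio of CPM, library labelled Otud1-/- over WT, in all members (horizontal) and in screened members (vertical), for 2587 genes compared (grey) and the 24 genes named by rule (red, some with their symbols). Dotted lines mark 1.5-fold. Fn1, Ccl17 and Cxcl3 lie past 1.5-fold in both sets, Cxcl10 lies near 0 in screened members (0.12), and the lowest named gene is Retnla on the horizontal axis (-4.54) and Tnfrsf4 on the vertical axis (-5.10). The lowest grey point is Xist, which had 0 UMIs in members labelled Otud1-/-.

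Counts in gene lists were read against 4994 genes with a mean of at least 20 CPM, where 258 (5.17%) lay above 1.5-fold and 401 (8.03%) below, around a median of -0.03 on the log2 scale. The median of MHC class II presentation, the core task of these cells, was higher by a small step. Of 23 measured genes 2 were past 1.5-fold higher and 0 lower, and the median log2 ratio was 0.31 (0.15 in screened members). In screened members 0 of the 23 were past 1.5-fold higher and 3 lower. Of the 2411 genes compared in screened members, at a mean of at least 50 CPM, 3.32% were higher and 7.80% lower. Their summed level was 52399 CPM in members labelled Otud1-/- and 40986 CPM in WT members, and 62604 CPM (labelled Otud1-/-) and 54598 CPM (WT) in screened members. Cd9, a tetraspanin, had 308 CPM in members labelled Otud1-/- and 166 CPM in WT members, a log2 ratio of 0.89 (0.71 to 1.08), and H2-DMb1, a chain of the peptide editor H2-DM, 803 CPM in members labelled Otud1-/- and 518 CPM in WT members, a log2 ratio of 0.63 (0.53 to 0.74). Their screened ratios were 0.46 and 0.33. The chains H2-Aa, H2-Ab1 and H2-Eb1 and the invariant chain Cd74, chosen after their values were seen, had log2 ratios of 0.35, 0.34, 0.31 and 0.39, and of 0.21, 0.15, 0.15 and 0.24 in screened members. H2-Ob, which restrains H2-DM in B cells and some dendritic cells, ran the other way at a log2 ratio of -0.55.

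Since class II genes share a promoter layout, 3 of their promoters are shown, with 250 bases before and 50 after the start of each gene from RefSeq (GRCm38.p6). Capitals mark TGATTGG, the core of the Y box that nuclear factor Y binds in class II promoters.
H2-Aa (chr17:34287774-34288073, minus strand): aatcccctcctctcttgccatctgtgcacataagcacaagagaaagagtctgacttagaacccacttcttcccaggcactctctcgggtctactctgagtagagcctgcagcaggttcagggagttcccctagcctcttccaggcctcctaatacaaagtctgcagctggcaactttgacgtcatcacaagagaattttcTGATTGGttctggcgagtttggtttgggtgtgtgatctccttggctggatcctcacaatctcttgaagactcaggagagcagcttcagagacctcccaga
H2-DMb1 (chr17:34152941-34153240, plus strand): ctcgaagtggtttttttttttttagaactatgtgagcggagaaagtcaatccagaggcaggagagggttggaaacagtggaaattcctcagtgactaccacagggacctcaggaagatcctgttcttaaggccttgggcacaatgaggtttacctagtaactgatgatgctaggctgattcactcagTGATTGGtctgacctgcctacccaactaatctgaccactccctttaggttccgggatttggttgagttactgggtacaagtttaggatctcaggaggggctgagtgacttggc
H2-Eb1 (chr17:34305617-34305916, plus strand): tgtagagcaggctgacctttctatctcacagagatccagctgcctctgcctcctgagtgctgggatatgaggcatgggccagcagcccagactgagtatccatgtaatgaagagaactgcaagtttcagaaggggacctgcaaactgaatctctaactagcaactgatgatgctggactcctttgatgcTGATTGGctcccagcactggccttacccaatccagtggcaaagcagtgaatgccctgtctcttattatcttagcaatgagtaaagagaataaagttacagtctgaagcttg
The motif starts 50, 63 and 61 bases before the gene start in these windows. Searched on both strands (TGATTGG or CCAATCA), it was in 7 of the 8 class II H2 genes that had a window, out of 9 looked up (87.5%), against 2568 of 32841 promoters of the same length (7.82%). A match is a description of the letters in the window, not of binding. H2-DMa was the gene without it, and its level was 768 CPM in members labelled Otud1-/- and 593 CPM in WT members.

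For MHC class I presentation, 0 of 16 measured genes lay above 1.5-fold and 1 below, around a median log2 ratio of -0.10 (-0.21 in screened members), and the median turned to 0.04 with TMM factors. Nlrc5, the transactivator of class I genes, was the gene past the fold, with 14.9 CPM in members labelled Otud1-/- and 33.6 CPM in WT members, a log2 ratio of -1.15 (-1.75 to -0.61). Of the costimulation and checkpoint ligands, 2 of 12 measured genes lay above 1.5-fold and 0 below, around a median log2 ratio of 0.18 (0.16 in screened members). Besides Tnfsf9, Cd40 was higher, with 89.4 CPM in members labelled Otud1-/- and 58.0 CPM in WT members, a log2 ratio of 0.62 (0.31 to 0.95). Cd86, by contrast, had 195 CPM in members labelled Otud1-/- and 177 CPM in WT members, and Cd274, the gene of PD-L1, 65.9 CPM in members labelled Otud1-/- and 65.8 CPM in WT members, with log2 ratios of 0.13 and 0.00. In the maturation and migration list, 2 of 13 measured genes lay above 1.5-fold and 0 below, around a median log2 ratio of 0.28 (0.15 in screened members). Marcksl1, a membrane-actin linker, had a ratio of 0.61 beside Ccl17, and Ccr7 -0.33.

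For the C-type lectins, which bind sugars of microbes and of self, 7 of 14 measured genes lay above 1.5-fold and 0 below, around a median log2 ratio of 0.51 (-0.04 in screened members). Clec4d, a partner of Mincle, had the largest ratio, 1.57, but its level was below 10% of that in neutrophils, and it was 0.20 in screened members. Clec4a1 had 92.1 CPM in members labelled Otud1-/- and 49.2 CPM in WT members, a log2 ratio of 0.90 (0.57 to 1.25), and Cd302 57.3 CPM in members labelled Otud1-/- and 30.7 CPM in WT members, a log2 ratio of 0.89 (0.48 to 1.34), with screened ratios of 0.52 and 1.53. Clec12a, an inhibitory lectin, had 58.6 CPM in members labelled Otud1-/- and 72.1 CPM in WT members, with -0.58 in screened members. The gate genes had log2 ratios of 0.22 (Cd209a, -0.04 in screened members) and 0.29 (Clec10a, -0.05). These are not read, because the rule chose the cells by a fixed number of UMIs of these genes at unlike depth. Mgl2 was -0.16 in all members and -0.92 (-1.16 to -0.69) in screened members, where it had 220.1 CPM in the library labelled Otud1-/- and 418 CPM in the WT library.

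Of the pattern recognition genes, 3 of 11 measured genes lay above 1.5-fold and 0 below, around a median log2 ratio of 0.19 (-0.18 in screened members). Tlr2, the lipoprotein receptor, and Nlrp3, an inflammasome sensor, had log2 ratios of 0.76 and 0.75, and 0.02 and 0.08 in screened members. Cd14, the lipopolysaccharide coreceptor, likewise had a log2 ratio of 0.74 and -0.18. Of the Fc receptors, 2 of 7 measured genes lay above 1.5-fold and 1 below, around a median log2 ratio of 0.24 (-0.78 in screened members). Fcer1g, the shared signalling chain, had 1516 CPM in members labelled Otud1-/- and 949.9 CPM in WT members, a log2 ratio of 0.67 (0.60 to 0.75), and Fcrla, a B cell gene, -1.22. In the NF-kB list, 6 of 20 measured genes lay above 1.5-fold and 0 below, around a median log2 ratio of 0.38 (0.04 in screened members). Nfkbia, the inhibitor that NF-kB itself induces, had 1552 CPM in members labelled Otud1-/- and 999 CPM in WT members, a log2 ratio of 0.64 (0.56 to 0.71), and Sod2, mitochondrial superoxide dismutase, 258 CPM in members labelled Otud1-/- and 146 CPM in WT members, a log2 ratio of 0.82 (0.63 to 1.02), with 0.32 and 0.59 in screened members. The subunits Nfkb1, Rela, Rel and Relb were within -0.01 and 0.04.

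The median of the cytokine genes was higher, less so in screened members. Here 4 of 9 measured genes lay above 1.5-fold and 0 below, around a median log2 ratio of 0.58 (0.12 in screened members). Il1b, the inflammatory cytokine IL-1 beta, was the most abundant of them, with 3712 CPM in members labelled Otud1-/- and 1924 CPM in WT members, a log2 ratio of 0.95. Its screened levels were 3673 CPM (labelled Otud1-/-) and 2832 CPM (WT), a ratio of 0.38 (0.30 to 0.45), and the neutrophil gate had 8250.0 CPM (labelled Otud1-/-) and 7659 CPM (WT). Il1rn, the receptor antagonist that opposes it, had a log2 ratio of 0.90 in all and -0.05 in screened members, and Spp1, osteopontin, 1.46 and -0.68. The chemokine median was also higher, less so in screened members. Of the chemokines, 9 of 15 measured genes lay above 1.5-fold and 1 below, around a median log2 ratio of 0.64 (0.28 in screened members). Ccl4, an inflammatory chemokine, had 439 CPM in members labelled Otud1-/- and 214 CPM in WT members, a log2 ratio of 1.04 (0.88 to 1.20), with 0.89 (0.66 to 1.13) in screened members. Cxcl1 was the gene past the fold downwards, at 81 UMIs (labelled Otud1-/-) and 85 (WT), and was below 10% of its level in the C1q+ macrophage gate.

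For chemoattractant receptors, 2 of 13 measured genes lay above 1.5-fold and 1 below, around a median log2 ratio of 0.22 (-0.13 in screened members). C5ar1, the receptor of complement C5a, had a log2 ratio of 1.42 and -0.15 in screened members, and its level was below 10% of that in neutrophils. Ltb4r1, the leukotriene B4 receptor, had 101 CPM in members labelled Otud1-/- and 51.2 CPM in WT members, a log2 ratio of 0.97 (0.65 to 1.31), with 0.39 in screened members. S1pr1, a lymphocyte egress receptor, had a log2 ratio of -1.19. For cytokine receptors and STATs, 5 of 29 measured genes lay above 1.5-fold and 1 below, around a median log2 ratio of 0.18 (-0.04 in screened members). Il1r2, the decoy receptor of IL-1, had 341 CPM in members labelled Otud1-/- and 168 CPM in WT members, a log2 ratio of 1.02 (0.84 to 1.20), and 0.70 (0.42 to 0.99) in screened members. It was also high in the neutrophil gate, at 2458 CPM (labelled Otud1-/-) and 1373 CPM (WT), and the monocyte gate had 438 CPM (labelled Otud1-/-) and 112 CPM (WT). Il10rb had a log2 ratio of 0.91 and Stat5b -0.81.

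Of the transcription factors of the dendritic lineage, 3 of 28 measured genes lay above 1.5-fold and 2 below, around a median log2 ratio of 0.03 (-0.22 in screened members). Id3 and Cebpb were higher, at 0.87 and 0.80 (0.80 and 0.23 in screened members), and Ikzf3, a lymphocyte factor, and Notch2 lower, at -1.15 and -0.90 (-1.98 and -1.20). Notch2, which type 2 dendritic cells need in the mouse spleen and gut, had 45.0 CPM in members labelled Otud1-/- and 84.3 CPM in WT members. Irf4, tied to type 2 subsets, had 49.7 CPM in members labelled Otud1-/- and 56.0 CPM in WT members, a log2 ratio of -0.17 (-0.53 to 0.19), and -0.32 (-0.90 to 0.29) in screened members. Klf4, likewise tied to type 2 subsets, had 114 CPM in members labelled Otud1-/- and 160.3 CPM in WT members, a log2 ratio of -0.49 (-0.71 to -0.27). In screened members Klf4 was past 1.5-fold lower, with 134 CPM (labelled Otud1-/-) and 215 CPM (WT), a log2 ratio of -0.69 (-1.01 to -0.36). The median of interferon-stimulated genes had the opposite sign in screened members. In all members 9 of 34 measured genes lay above 1.5-fold and 2 below, around a median log2 ratio of 0.22. In screened members 1 of the 34 lay above and 12 below, around a median of -0.42. Over the 2411 genes compared in screened members (mean of at least 50 CPM), 3.32% were higher and 7.80% lower. The list genes needed a mean of only 20 CPM, taken in all members, so these shares are not like for like. Ifit1 had a log2 ratio of 1.99 and 0.75 (-0.27 to 1.93) in screened members, and Rsad2, viperin, 0.86 and -2.01 (-3.07 to -1.11). Igtp had a log2 ratio of -0.86 and -0.85.

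The S100 and annexin list, calcium-binding and membrane proteins of motile myeloid cells, had the highest median of the 23 lists. Of it, 10 of 16 measured genes lay above 1.5-fold and 0 below, around a median log2 ratio of 0.74 (0.33 in screened members). S100a8 and S100a9, which form calprotectin in neutrophils, had log2 ratios of 1.76 and 2.10 but -0.93 and -0.89 in screened members, where cells with neutrophil genes were removed. The other 8 genes past the fold were also above 0 in screened members, and 5 of them stayed past 1.5-fold there. S100a4, S100a11 and Anxa1 fell under it, at 0.56, 0.42 and 0.42. Lgals3, galectin 3, had 1797 CPM in members labelled Otud1-/- and 876 CPM in WT members, a log2 ratio of 1.04 (0.96 to 1.11), and Anxa2 had 863 CPM in members labelled Otud1-/- and 436 CPM in WT members, a log2 ratio of 0.98 (0.87 to 1.10). Their screened ratios were 0.76 (0.65 to 0.88) and 0.73 (0.56 to 0.90). Of the glycolysis and hypoxia genes, 2 of 19 measured genes lay above 1.5-fold and 1 below, around a median log2 ratio of 0.24 (0.01 in screened members). Pfkfb3, which raises glycolytic flux, had 65.2 CPM in members labelled Otud1-/- and 27.3 CPM in WT members, a log2 ratio of 1.24 (0.82 to 1.71), and 1.01 in screened members. Hk2, a hexokinase, had 54.6 CPM in members labelled Otud1-/- and 104 CPM in WT members, a log2 ratio of -0.93 (-1.23 to -0.63), and -1.16. In the immediate early list, 2 of 24 measured genes lay above 1.5-fold and 2 below, around a median log2 ratio of 0.05 (-0.01 in screened members), with Ier3 and Dusp1 at 0.98 and 0.95 and Egr3 and Egr1 at -0.97 and -0.78.

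Cell cycle genes had the lowest median of the 23 lists, and 0 of 19 measured genes lay above 1.5-fold and 12 below, around a median log2 ratio of -0.91 (-1.21 in screened members). Ube2c, a mitotic ubiquitin-conjugating enzyme, had 24 UMIs in members labelled Otud1-/- and 166 in WT members, which were 7.95 CPM in members labelled Otud1-/- and 80.9 CPM in WT members, a log2 ratio of -3.27 (-4.03 to -2.72). Birc5, survivin, had 13.9 CPM in members labelled Otud1-/- and 53.1 CPM in WT members, a log2 ratio of -1.90 (-2.48 to -1.41). Top2a, topoisomerase II alpha, had a log2 ratio of -0.97, while Mki67 had 99.7 CPM in members labelled Otud1-/- and 119 CPM in WT members, a ratio of -0.26. H2afz, a histone variant, ran the other way at a log2 ratio of 0.41. Among Y-positive members without Xist the median was -0.60, against -0.91 in all members.

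The vesicle traffic genes, listed because the study's title names protein transport, had a median near that of all genes. Of them, 5 of 51 measured genes lay above 1.5-fold and 0 below, around a median log2 ratio of 0.07 (-0.10 in screened members). Stx11, a SNARE of granule release, had 93.7 CPM in members labelled Otud1-/- and 51.7 CPM in WT members, a log2 ratio of 0.85 (0.53 to 1.20), and 0.10 in screened members. In the list of OTU deubiquitinases and the NRF2 pathway, 2 of 12 measured genes lay above 1.5-fold and 0 below, around a median log2 ratio of 0.08 (-0.23 in screened members). Slc7a11, the cystine transporter, had a log2 ratio of 1.28 but -0.15 in screened members, and its level was below 10% of that in neutrophils. Srxn1, sulfiredoxin, had log2 ratios of 0.72 and, in screened members, 0.70. Of the integrins and adhesion genes, 1 of 14 measured genes lay above 1.5-fold and 0 below, around a median log2 ratio of 0.00 (-0.12 in screened members). For cytosolic ribosomal proteins, 0 of 82 measured genes lay above 1.5-fold and 6 below, around a median log2 ratio of 0.01 (0.16 in screened members). For mitochondrially encoded genes, 0 of 13 measured genes lay above 1.5-fold and 3 below, around a median log2 ratio of -0.24 (-0.29 in screened members).

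**Figure D5:**
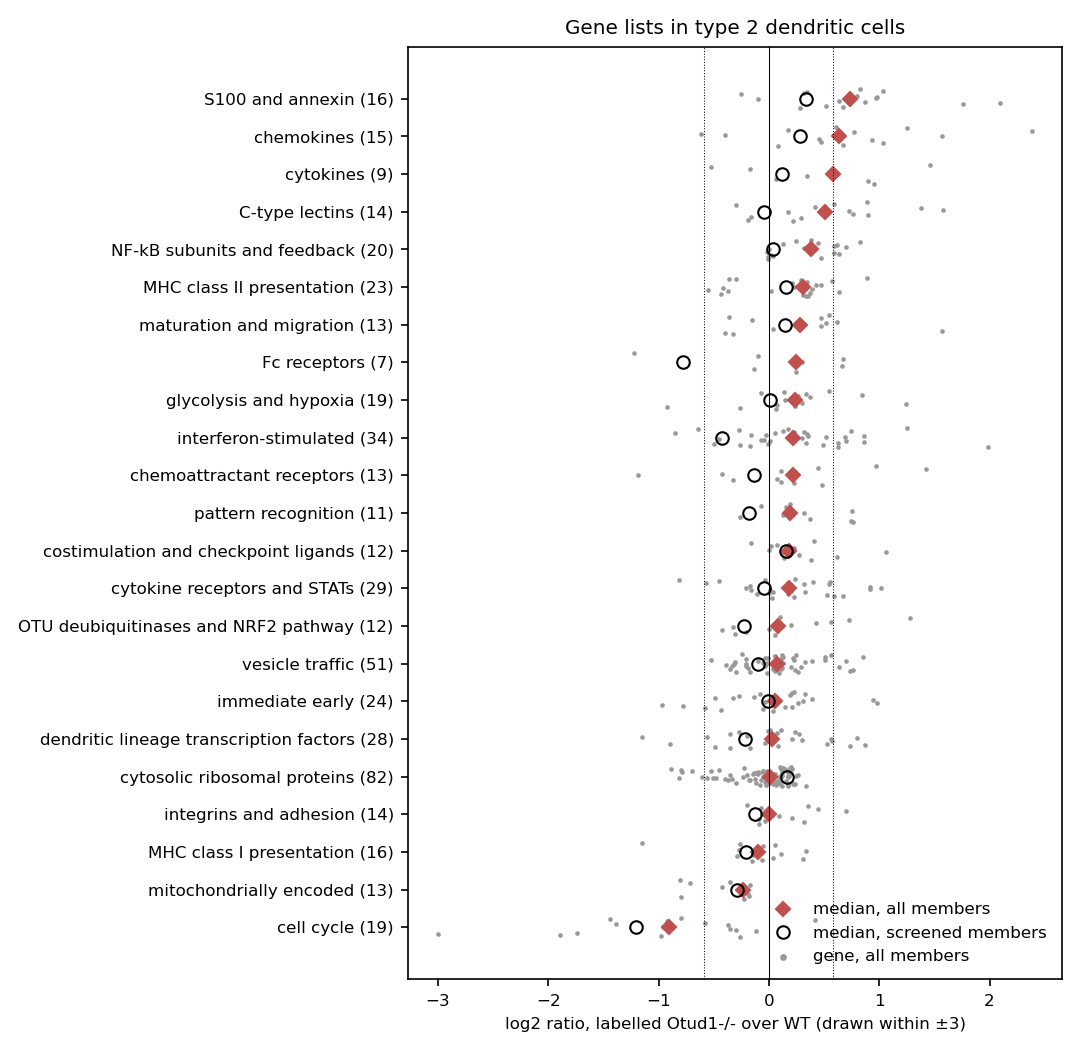
Log2 ratio of CPM, library labelled Otud1-/- over WT, for the genes of 23 lists with a mean of at least 20 CPM. Grey points are genes in all members, red diamonds the list's median in all members and open circles its median in screened members; numbers in brackets count the genes, and dotted lines mark 1.5-fold. The S100 and annexin list has the highest median (0.74) and the cell cycle list the lowest (-0.91), and for the interferon-stimulated list the median changes sign between all (0.22) and screened members (-0.42).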

How the data were processed

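Gingival immune cells of 2 mouse libraries were profiled with 10x Chromium 3′ v3.1 chemistry, per the labels' protocols. The deposited values are raw UMI counts per gene and barcode, not normalised; the submitters' processing notes name Cell Ranger 5.0.0, Seurat 3.2.3 and mm10, while the file header names Cell Ranger 6.0.1. The libraries held 44083735 UMIs in 8109 barcodes (labelled Otud1-/-) and 44878537 UMIs in 13267 barcodes (WT). Groups came from the genotype labels. Members' UMIs were summed per library and scaled to CPM, and log2 ratios used a prior of 0.5 CPM. Intervals are exact Poisson, Clopper-Pearson or conditional binomial at 95% and cover counting error only; PCR copies are collapsed by UMIs. Genes compared had a mean of at least 50 CPM and at least 50 UMIs in the higher library.

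The members and gene lists were chosen with earlier results of these data known. Named genes are the 12 highest and 12 lowest ratios, without Otud1, sex-linked, immunoglobulin, T cell receptor, haemoglobin and unnamed genes, genes under 10% of another gate's level, and genes whose ratio rests on 1 cell. From each list up to 4 genes with the largest ratios were named. Other list genes, and the strata of members, were picked for their known role after values were seen.

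Doublets were scored by simulating pairs of barcodes (rate of 0.8% per 1000 barcodes), which marked 450 kept barcodes labelled Otud1-/- (6.49%) and 1355 WT (10.6%); they were left in, with their removal as an alternative. The screen for 5 other lineages was added after seeing the data. The alternatives were another gate, limit, mitochondrial maximum, scaling (TMM, median of ratios), prior, minimum level, thinning to 1000 UMIs, and leaving out mature, monocyte-like, lineage-carrying, non-Y or highest cells. The ratio and its interval were tested on simulated data. Python 3.11.15, numpy 2.4.6, scipy 1.17.1, pandas 2.3.3, scikit-learn 1.9.0, matplotlib 3.10.9, R 4.3.3 and edgeR 4.0.16 (TMM factors only) were used.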

Additional observations from a re-analysis of the deposited data

How the results depend on the processing

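The share of members in the library labelled Otud1-/- and in the WT library was 2.88% and 1.81% with at least 3 gate UMIs, 2.57% and 2.04% with other cell types at 0 UMIs, and 5.07% and 3.50% with at most 5% mitochondrial UMIs. It was 2.09% and 1.31% without members that carried B, T or neutrophil genes, 2.03% and 1.21% without the 5 lineages, 2.34% and 2.34% without mature members, and 2.52% and 2.41% without monocyte-gene members. It was 1.16% and 1.05% with the rule at 1000 UMIs per barcode, and 3.96% and 2.80% among Y-positive barcodes without Xist. Genes past 1.5-fold, 151 higher and 128 lower, numbered 263 higher and 85 lower with TMM factors, which shifted the log2 ratios by 0.14. They numbered 80 and 201 without B, T or neutrophil carriers, and 80 higher without the 5 lineages. With a mean of at least 100 CPM they were 96 and 54 of 1322 genes, with no minimum mean 731 and 1614 of 9691, and with members thinned to 1000 UMIs 69 and 78 of 911. Of 322 list medians under the alternatives 295 stayed within their interval and 27 moved past it; 33 had the opposite sign, all in lists whose median lay under 1.5-fold. Of 336 values of the 24 named genes 246 stayed within their interval, 90 moved past it and 0 reversed. Leaving out the highest cell could not reverse any of them, because genes were named only if they kept their direction without it. No paired analysis was possible because each genotype had 1 library. Genotype cannot be told apart from library, depth, the sex of the cells or the animals used. In sparse genes such as Zbtb46 the depth limits what could be seen.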
